A study of Rattus norvegicus with 12 samples.

Results

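Gene expression in cultured rat cortical neurons exposed to halothane at 1 MAC was compared with that in untreated neurons of the same study. The comparison held 6 of the 12 arrays of the series, chosen by their labels alone: 3 halothane 1 MAC arrays and 3 individual control arrays. The neurons came from fetal brains of 3 pregnant rats at day 17 of pregnancy and had been kept apart by mother, with 4 plates made per rat. At day 16 in vitro the treated plates spent 6 h in a gas-tight chamber with halothane at about 1%, followed by 6 h of recovery before harvest. Control plates had air in place of anaesthetic and stood in the same incubator outside the chamber, so that the gas and the time in the chamber cannot be told apart. The other groups of the series, halothane at 3 MAC (about 3%) and isoflurane at 3 MAC (about 4%), had the same exposure and recovery times and 3 arrays each. They entered the fit, which estimates 1 spread over all arrays, and halothane 3 MAC is compared with 1 MAC further on.

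Halothane is a volatile general anaesthetic, a small halogenated alkane that was used in the clinic for decades. MAC, the minimum alveolar concentration, is the usual measure of potency of an inhaled anaesthetic and is defined by the loss of movement in response to a painful stimulus. Volatile anaesthetics are known to enhance currents through GABA-A and glycine receptors and to open some two-pore potassium channels. They are also known to dampen nicotinic and glutamate receptors, sodium and calcium channels and transmitter release. Neurons in culture also carry stress and supply programs that answer to nutrients, metals, oxidants and calcium, such as the sterol genes driven by SREBP, the amino acid genes driven by ATF4 and the antioxidant genes driven by NRF2.

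Each array carried the sample in Cy5 and a pool of control RNA in Cy3, per the labels. Every value below is a log2 ratio of a sample over that pool, read from deposited values that are likely log10 ratios. The base rests on a ceiling at exactly 2 in the deposited values, which is a 100-fold ratio on that scale, and the direction rests on the dyes in the labels. If the direction were the opposite, higher and lower would be exchanged throughout. A difference between groups is the mean of the halothane arrays minus the mean of the control arrays, and SE is its standard error. The labels do not settle whether each rat gave 1 plate to every group or several plates to 1 treatment, and the p-values measure only the spread between plates pooled over all groups. Ratios to a pool of the same cultures give no level for a gene, so the labelled cell type could not be checked by the presence or absence of its markers.

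One library stood apart. Halothane 1 MAC array 1 had a median log2 ratio of 0.235, against −0.0056 to 0.0092 on the other 11 arrays, and an SD over features of 0.818 against 0.315 to 0.481. The array held 330 exact zeros, against 953 to 2124 on the others, and none of the 471 spots that stood at the 100-fold ceiling elsewhere. Over the 8933 genes with values on all 12 arrays its highest Pearson correlation with any other array was 0.179. Halothane 1 MAC arrays 2 and 3 correlated with each other at 0.76. The control arrays differed among themselves: arrays 2 and 3 of the halothane group correlated with control 1 at 0.615 and 0.609, with control 3 at 0.424 and 0.384, and with control 2 at 0.0941 each. The mean correlation of control 2 with the 3 arrays of halothane 3 MAC was 0.761 (0.745 to 0.773), against 0.0106 with the other controls. Among themselves, pairs within the halothane 3 MAC group gave 0.761, 0.767 and 0.841. Control 2 was thus about as close to that group as its members were to one another. The reason for this closeness was not tested. These correlations are across genes of arrays that share the same pool, and serve as a description. Differences below are given with all arrays and without halothane array 1, and for the lists that differ most between the control arrays also without control 2 or against the single controls.

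**Figure D1:**
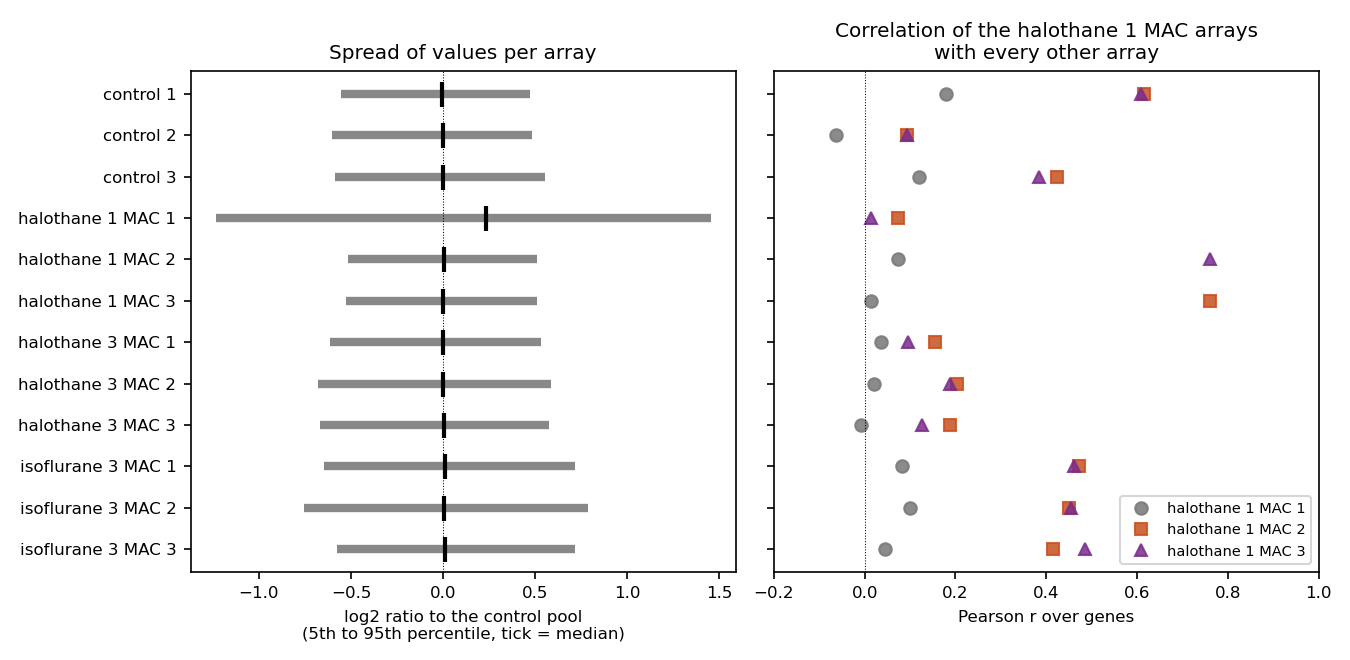
Left, the 5th to 95th percentile of log2 ratios to the control pool on each of the 12 arrays, with the median as a tick. Right, the Pearson correlation over genes of each halothane 1 MAC array with every other array. Halothane 1 MAC array 1 has the widest spread and a median of 0.235, and its correlations reach at most 0.179, while arrays 2 and 3 correlate at 0.76 with each other and at about 0.61 with control 1.

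No gene passed the test between halothane 1 MAC and control. Of 16546 features, 0 (0.0%) had an adjusted p under 0.05 in the limma fit of all 12 arrays, and 0 (0.0%) without halothane array 1. The smallest adjusted p was 0.275 with all arrays and 0.086 without array 1. Before adjustment, 1247 features (7.54%) had a p under 0.05 with all arrays, 828 higher and 419 lower, and 1298 without array 1, 764 higher and 534 lower. The median difference over all features was 0.08 with all arrays and 0.00 without array 1. Among 8979 genes with all 6 values, all 3 halothane arrays lay above all 3 controls in 641 (7.14%) and below them in 271 (3.02%). With arrays 2 and 3 alone, among 8987 genes with those 5 values, both lay above the 3 controls in 1188 (13.2%) and below them in 954 (10.6%). The genes named next are those of smallest p among genes with such a gap, 10 in each direction from each fit and 30 in all, of which 10 were taken by both fits. Since the gap was part of the choice, it is no finding about them.

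The gene nearest to the threshold in both fits was Lingo2, a membrane protein of neurons with leucine-rich repeats and an immunoglobulin domain. It read −0.81, −0.78 and −0.79 on the 3 halothane arrays and −0.05, 0.09 and 0.05 on the 3 controls. The 3 halothane values nearly coincided, array 1 included, and lay far below the controls. The difference was −0.82 ± 0.12 (SE, 3 arrays against 3; 1.77-fold lower; adjusted p = 0.275), and −0.81 ± 0.10 without array 1 (adjusted p = 0.086). The mean at halothane 3 MAC was −0.20 ± 0.10 (SD, n = 3) and with isoflurane −1.53 ± 0.06. Lingo2 differed from control by nearly the same amount whichever control array was taken, at −0.73, −0.87 and −0.83 for arrays 2 and 3 against controls 1, 2 and 3. It passed in some alternative settings and not in others (adjusted p 0.0431 with exact zeros kept as values, 0.0246 with array weights, 0.00828 with ordinary variances).

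Above control, the smallest p belonged to Cr1l, a membrane regulator that protects cells from complement in rats and mice. Cr1l read 1.33, 0.96 and 0.89 with halothane and 0.32, 0.18 and 0.11 in the controls. The lowest halothane value was well clear of the highest control. The difference was 0.86 ± 0.15 (1.81-fold; adjusted p = 0.553), and 0.72 ± 0.11 without array 1 (adjusted p = 0.166). The means were 0.56 ± 0.11 (SD, n = 3) at halothane 3 MAC and 0.81 ± 0.04 with isoflurane.

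Adcy8, an adenylyl cyclase that calcium and calmodulin switch on in neurons, read 0.31, 0.74 and 0.94 with halothane and −0.39, 0.13 and −0.41 in the controls. Array 1 was the lowest of the halothane arrays and control 2 the highest control, with no overlap by the rule of choice. Adcy8 gave 0.88 ± 0.20 with all arrays (adjusted p = 0.626) and 1.06 ± 0.17 without array 1 (2.09-fold; adjusted p = 0.188). Without both halothane array 1 and control 2 it was 1.24 and passed (adjusted p = 0.0407). The synaptotagmin Syt11, which takes part in vesicle traffic, read 0.60, 0.80 and 0.77 with halothane against 0.15, −0.28 and 0.15, a difference of 0.72 ± 0.15 (adjusted p = 0.626) and 0.78 ± 0.14 without array 1 (adjusted p = 0.344). The Syt11 means were 0.78 ± 0.09 (SD, n = 3) at halothane 3 MAC and 1.39 ± 0.09 with isoflurane. Ido1, the enzyme that turns tryptophan toward kynurenine, read 0.52, 0.51 and 0.57 with halothane against −0.10, −0.47 and −0.47. The 3 halothane values of Ido1 were close together, and the difference was 0.88 ± 0.18 (adjusted p = 0.626) and 0.89 ± 0.19 without array 1.

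Of the other genes that lay above control, Abcc4, an exporter of cyclic nucleotides and organic anions, read 0.29, 0.44 and 0.58 against −0.07, −0.52 and −0.20 (difference 0.70 ± 0.16, and 0.78 ± 0.15 without array 1). Carhsp1, a calcium-regulated RNA-binding protein, read 1.00, 0.77 and 0.74 against 0.41, −0.51 and −0.14, so that the distance depended much on the control (0.34 against control 1 and 1.27 against control 2). Itga4, the integrin alpha 4 chain, differed by 0.74 ± 0.16 (0.64 ± 0.14 without array 1), the matrix metalloproteinase Mmp11 by 0.76 ± 0.17 (0.65 ± 0.17 without array 1) and the zinc finger gene Zfp35 by 0.62 ± 0.14 (0.65 ± 0.14 without array 1). Hars2, the mitochondrial histidyl-tRNA synthetase, read 0.29, 0.32 and 0.28 with halothane and −0.98 and −0.89 in controls 2 and 3, but near 0 in control 1. Its difference of 0.93 ± 0.22 (0.93 ± 0.24 without array 1) was the mean of probes that gave 0.49 and 1.37, and without control 1 it was 1.24 and passed (adjusted p = 0.0182). All 10 genes above control in the fit of all arrays had differences between 0.62 and 0.93 and adjusted p between 0.553 and 0.626. Without array 1 their adjusted p lay between 0.166 and 0.381.

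Below control after Lingo2 came Cstf3, a subunit of the factor that cleaves transcripts before polyadenylation, which read −0.64, −0.72 and −0.62 with halothane against −0.08, 0.22 and 0.21 (difference −0.78 ± 0.17, and −0.79 ± 0.18 without array 1). Halothane and control values of Cstf3 were each close together, and did not overlap by the rule of choice. Slco1b2, an organic anion transporter best known from liver, read −0.59, −0.29 and −0.53 against 0.14, 0.11 and 0.13. The controls of Slco1b2 nearly coincided, and the difference was −0.60 ± 0.14 (−0.53 ± 0.13 without array 1). Ppp3cb, a catalytic subunit of the calcium-dependent phosphatase calcineurin, read −0.88, −0.51 and −0.57 against −0.19, −0.16 and 0.04 (difference −0.56 ± 0.14, and −0.44 ± 0.11 without array 1). The SH2 domain adaptor Sh2d3c read −0.45, −0.28 and −0.55 against 0.03, 0.11 and 0.09 (difference −0.50 ± 0.13, and −0.49 ± 0.12 without array 1). The means of Sh2d3c were 0.12 ± 0.10 (SD, n = 3) at halothane 3 MAC and −0.79 ± 0.10 with isoflurane.

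The ubiquitin ligase Wwp1 read −1.08, −0.47 and −0.54 against −0.20, 0.08 and 0.32 (difference −0.76 ± 0.20, and −0.57 ± 0.17 without array 1), and Igfbp4, which binds insulin-like growth factors, −0.98, −0.45 and −0.39 against −0.07, 0.00 and 0.06 (difference −0.60 ± 0.17, and −0.42 ± 0.11 without array 1). In both genes array 1 lay below arrays 2 and 3 by more than those arrays differed. Slc25a32, a mitochondrial carrier of folate and FAD, read 0.34, −0.13 and −0.32 against 0.87, 0.60 and 1.19 (difference −0.92 ± 0.25, and −1.11 ± 0.25 without array 1). Chrdl1, a secreted antagonist of bone morphogenetic proteins, differed by −0.59 ± 0.17 (−0.57 ± 0.17 without array 1). The sterol enzyme Nsdhl is described with its pathway. The adjusted p of all 10 genes below control lay between 0.275 and 0.626 with all arrays and between 0.086 and 0.477 without array 1.

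Some of the genes that only the fit without array 1 brought in were ones on which that array went its own way. Tmlhe, the first enzyme of carnitine synthesis, read 0.87 and 0.66 on arrays 2 and 3 against controls of 0.06, 0.24 and 0.09, and −0.57 on array 1. Its difference was 0.63 ± 0.13 without array 1 and 0.18 ± 0.29 with it. Rasd1, a small Ras-like protein induced by glucocorticoids, read −0.63 and −0.72 on arrays 2 and 3 against −0.16, −0.02 and −0.17, and 0.59 on array 1, so that −0.56 ± 0.12 became −0.14 ± 0.28 with all arrays. For these genes the sign on array 1 was opposite to that on arrays 2 and 3.

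Pcna, the sliding clamp of DNA polymerase, read 0.39 and 0.33 on arrays 2 and 3, −0.22 on array 1 and −0.36, −0.29 and −0.38 in the controls, a difference of 0.70 ± 0.13 without array 1 (adjusted p = 0.344) and 0.51 ± 0.18 with it. Nfyb, a subunit of the CCAAT-binding factor NF-Y, read 0.37, 0.56 and 0.53 against −0.11, 0.16 and −0.11, a difference of 0.57 ± 0.12 without array 1 and 0.51 ± 0.13 with it. Its mean was 0.61 ± 0.09 (SD, n = 3) at halothane 3 MAC and 0.59 ± 0.09 with isoflurane. Pdxk, the kinase that makes active vitamin B6, differed by 0.50 ± 0.10 without array 1 and by 0.75 ± 0.19 with it, and Sap30l, a part of the Sin3 repressor complex, by 0.50 ± 0.11 and 0.39 ± 0.14.

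Kalrn, an exchange factor that shapes dendritic spines, read −1.58 and −0.96 on arrays 2 and 3, −0.30 on array 1 and −0.46, 0.16 and −0.35 in the controls, a difference of −1.05 ± 0.24 without array 1 (adjusted p = 0.344) and −0.73 ± 0.29 with it. The Kalrn means were −0.78 ± 0.22 (SD, n = 3) at halothane 3 MAC and −1.15 ± 0.23 with isoflurane. Anks1b, a postsynaptic scaffold protein, had no value on array 1 and read 0.29 and 0.09 on arrays 2 and 3 against 0.92, 1.01 and 1.03 in closely grouped controls (difference −0.79 ± 0.17 in the fit without array 1). Cavin2, a coat protein of caveolae, differed by −0.66 ± 0.16 without array 1, where its probes gave −0.40 and −0.93, and by −0.39 ± 0.23 with it, where they gave 0.16 and −0.94. Bhmt, which remethylates homocysteine with betaine, differed by −0.44 ± 0.11 without array 1 and by −0.22 ± 0.18 with it, where its probes gave −0.44 and −0.01. None of these passed.

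**Figure D2:**
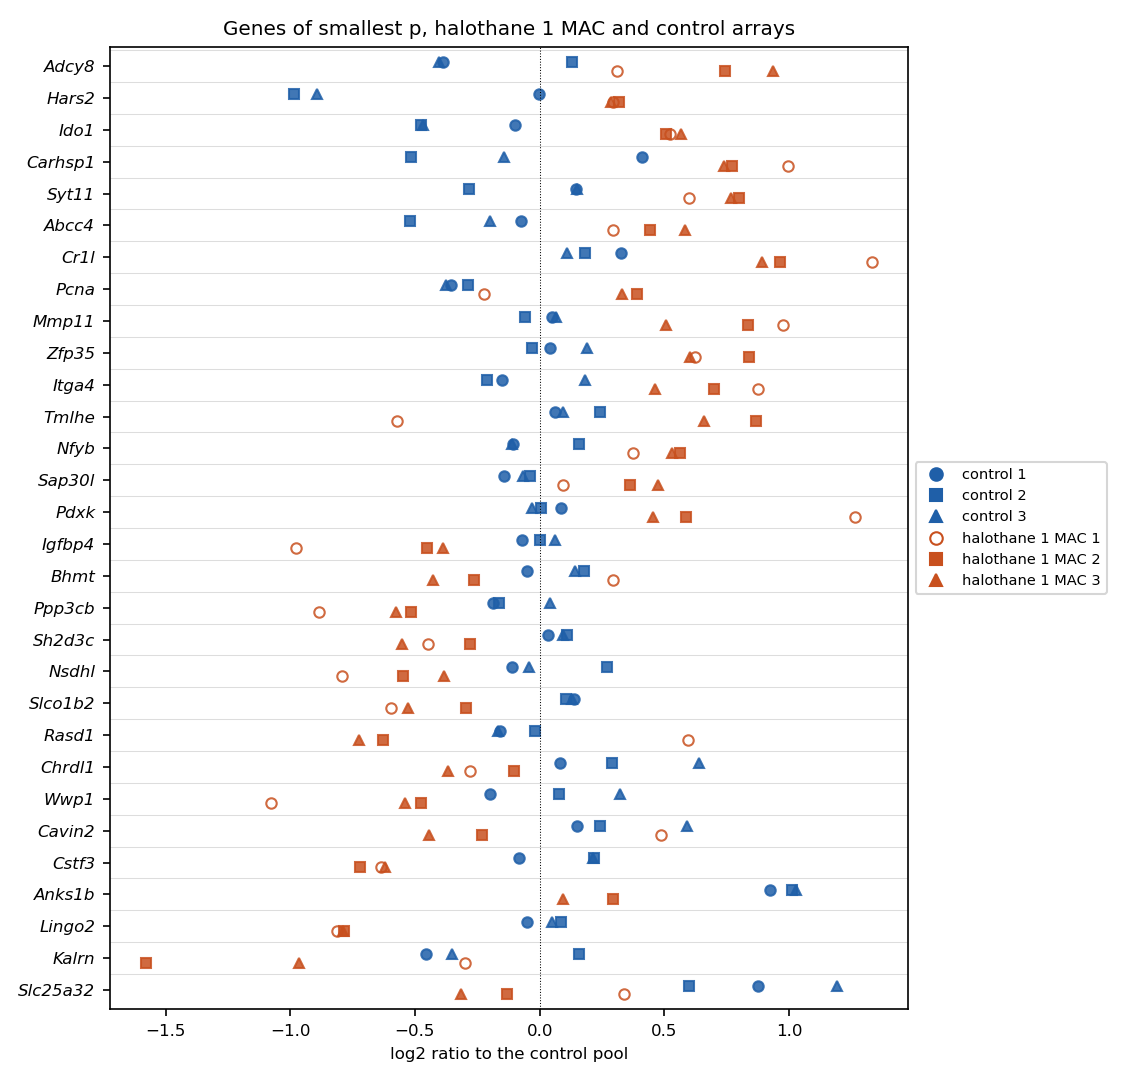
The log2 ratio to the control pool on each of the 3 halothane 1 MAC arrays (orange, array 1 open) and 3 control arrays (blue) for the 30 named genes, ordered by the difference without array 1. Lingo2 shows 3 nearly equal halothane values around −0.8 and controls near 0, while for Tmlhe and Rasd1 the open symbol of array 1 lies on the opposite side of the controls from arrays 2 and 3.

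Pathway by pathway, 29 gene lists and 11 cell type lists were described, with 781 of their 1035 symbols measured. None of the measured members passed, with or without array 1 (0 in each fit, as over all features, 0.0%). In cultures of mixed cells, fewer cells of a type and less RNA per cell cannot be told apart, which applies to every list. The list medians depended on which control array was taken. Against control 1, the medians of arrays 2 and 3 lay between −0.16 and 0.24, with 25 of the 29 pathway lists within 0.1 of 0. Against control 2 they ran from −0.97 to 0.66, with 14 lists within 0.1 of 0, and against control 3 from −0.26 to 0.45, with 20. The SD over the 29 lists was 0.08 against control 1, 0.31 against control 2 and 0.14 against control 3. The same held over single genes: of 8933 genes with all values, arrays 2 and 3 differed on average by more than 2-fold from control 1 in 17, from control 3 in 110 and from control 2 in 352. Over those genes the SD of the difference was 0.24 against control 1, 0.34 against control 3 and 0.43 against control 2.

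**Figure D3:**
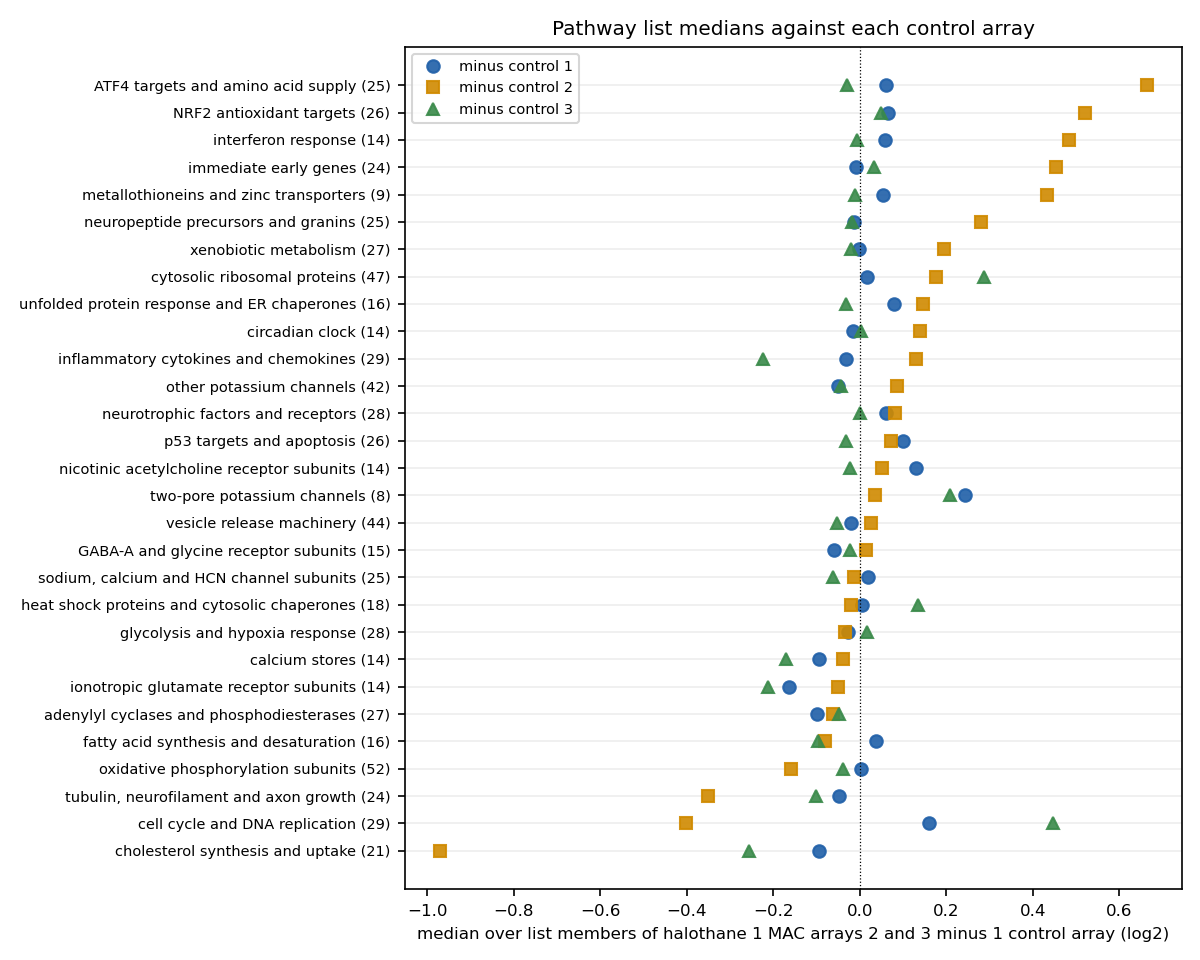
For each of the 29 pathway lists (number of measured members in brackets), the median over members of halothane 1 MAC arrays 2 and 3 minus control 1, control 2 or control 3, on the log2 scale. Differences from control 1 stay between −0.16 and 0.24, while those from control 2 reach −0.97 for cholesterol synthesis and 0.66 for ATF4 targets.

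With all arrays, and without array 1, the list whose median lay farthest from 0 was cholesterol synthesis and uptake, while without control 2 the cell cycle list lay farther (0.36 against −0.26). These genes encode the enzymes from mevalonate to cholesterol and the regulators of SREBP, the factor that switches them on when membrane sterol is short. Of 26 listed genes 21 were measured, and their median difference was −0.53 with all arrays and −0.49 without array 1, against 0.08 and 0.00 over all features. With all arrays 18 members lay below 0 and 7 had an unadjusted p under 0.05, all lower, against 146 lower of all 9210 genes tested. That count was 6 without array 1 and 1 without control 2, against 210 and 121 lower over all genes. All 3 halothane arrays lay below all 3 controls in 8 of 21 members (3.02% over all genes), and above them in 1 (7.14% over all genes). The medians of the list were −0.73, −0.63 and −0.61 on the halothane arrays and −0.48, 0.29 and −0.30 in controls 1, 2 and 3. Controls 1 and 3 thus stood below the pool and control 2 above it. For arrays 2 and 3 the median member lay at −0.09 against control 1, −0.97 against control 2 and −0.26 against control 3, and without control 2 the median with all halothane arrays was −0.26. The medians on the halothane 3 MAC arrays were 0.33, 0.33 and 0.45, next to control 2, and those on the isoflurane arrays −0.57, −1.13 and −0.86.

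Nsdhl, which removes a methyl group from sterol intermediates, had the smallest p of the list. It read −0.79, −0.55 and −0.39 with halothane and −0.11, 0.27 and −0.04 in the controls. The groups did not overlap, which was part of the rule that chose Nsdhl as a named gene. Control 1 was the nearest control, and the distances of arrays 2 and 3 from controls 1, 2 and 3 were −0.35, −0.74 and −0.42. The difference was −0.61 ± 0.15 (1.53-fold lower; adjusted p = 0.626), and −0.51 ± 0.13 without array 1 (adjusted p = 0.389). Lss, lanosterol synthase, read −0.27, −0.36 and −0.18 against 0.09, 0.40 and 0.28 (difference −0.53 ± 0.20, and −0.53 ± 0.22 without array 1). Insig1, which holds SREBP in the endoplasmic reticulum when sterol is plentiful, read −1.30, −0.51 and −0.61 against −0.43, 0.52 and −0.13 (difference −0.80 ± 0.27, and −0.55 ± 0.25 without array 1). In Insig1, arrays 2 and 3 lay on average −0.14 from control 1 and −1.09 from control 2.

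Fdps, farnesyl diphosphate synthase, read −1.28, −0.85 and −0.89 with halothane against −0.77, 0.21 and −0.46 (difference −0.67 ± 0.26, and −0.54 ± 0.27 without array 1). Pmvk, phosphomevalonate kinase, read −1.45, −0.67 and −0.76 against −0.52, 0.14 and −0.37 (difference −0.71 ± 0.24, and −0.46 ± 0.20 without array 1). In both genes control 2 was the only control above the pool. The sterol reductase Tm7sf2 read −0.60 and −0.56 on arrays 2 and 3 and 0.47 on array 1, against −0.33, 0.39 and −0.06, and differed by −0.58 ± 0.25 without array 1 and by −0.23 ± 0.31 with it.

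**Figure D4:**
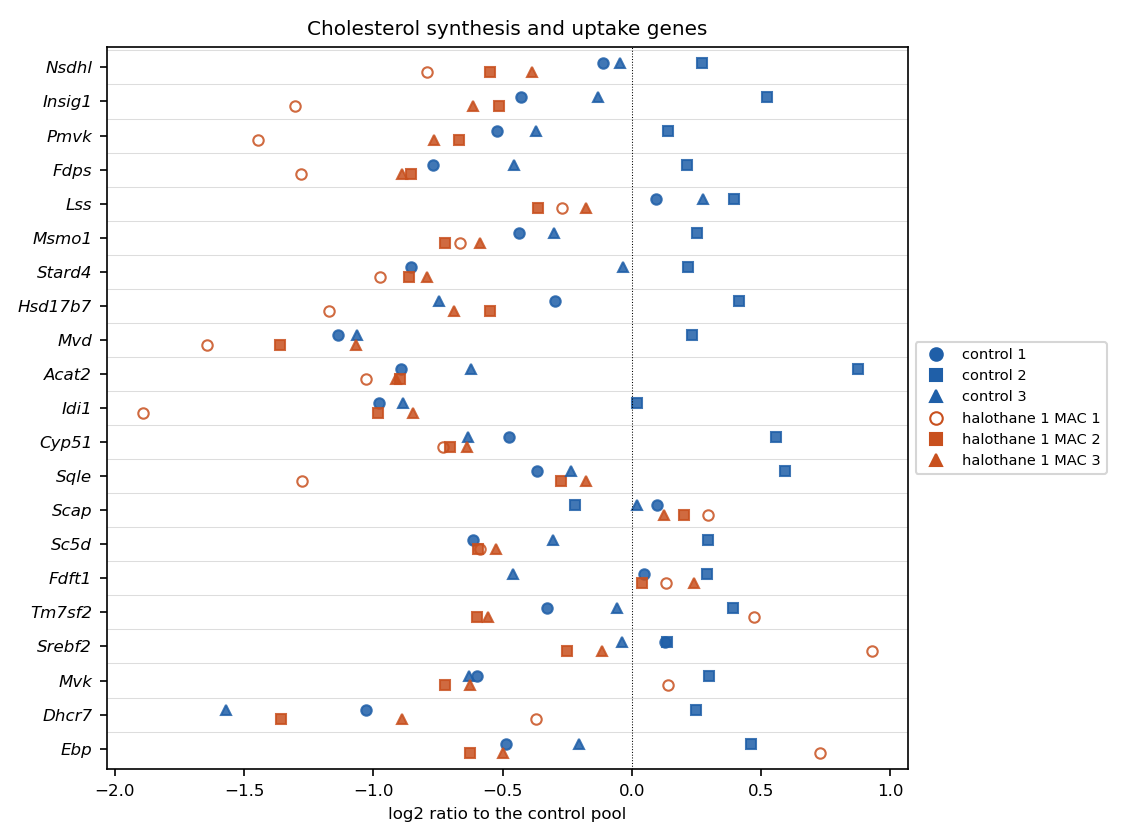
The log2 ratio to the control pool on the 3 halothane 1 MAC arrays (orange, array 1 open) and 3 control arrays (blue) for the 21 measured genes of cholesterol synthesis and uptake, in order of p in the fit of all arrays. Control 2 (blue squares) lies above 0 in 20 of 21 genes, against 4 for control 1 and 2 for control 3.

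The upstream sequences of 4 of these genes are shown because their promoters are where SREBP and its partner NF-Y are known to act, and because the NF-Y subunit Nfyb is among the genes named above. Each is the 250 bases before the transcript start, 5′ to 3′ on the gene's strand, from RefSeq in build GRCr8: Nsdhl (chrX:155817110-155817359, plus strand), Insig1 (chr4:8057770-8058019, minus strand), Fdps (chr2:176804817-176805066, minus strand) and Lss (chr20:12118231-12118480, minus strand). Capitals mark the CCAAT box, CCAAT on either strand (ATTGG on the other).
Nsdhl: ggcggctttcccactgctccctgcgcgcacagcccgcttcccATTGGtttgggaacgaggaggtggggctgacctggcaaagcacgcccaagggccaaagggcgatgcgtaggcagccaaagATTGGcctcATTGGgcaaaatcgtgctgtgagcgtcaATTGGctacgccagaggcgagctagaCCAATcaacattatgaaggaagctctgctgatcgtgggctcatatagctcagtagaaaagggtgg
Insig1: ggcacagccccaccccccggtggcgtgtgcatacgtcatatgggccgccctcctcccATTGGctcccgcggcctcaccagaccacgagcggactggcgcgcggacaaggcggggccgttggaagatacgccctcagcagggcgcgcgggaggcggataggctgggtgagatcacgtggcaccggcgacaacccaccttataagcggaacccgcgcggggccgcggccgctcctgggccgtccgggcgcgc
Fdps: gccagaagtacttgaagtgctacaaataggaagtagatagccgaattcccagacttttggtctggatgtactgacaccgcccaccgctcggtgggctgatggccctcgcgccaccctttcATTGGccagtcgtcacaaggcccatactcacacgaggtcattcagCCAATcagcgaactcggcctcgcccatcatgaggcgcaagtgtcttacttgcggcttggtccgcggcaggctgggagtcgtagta
Lss: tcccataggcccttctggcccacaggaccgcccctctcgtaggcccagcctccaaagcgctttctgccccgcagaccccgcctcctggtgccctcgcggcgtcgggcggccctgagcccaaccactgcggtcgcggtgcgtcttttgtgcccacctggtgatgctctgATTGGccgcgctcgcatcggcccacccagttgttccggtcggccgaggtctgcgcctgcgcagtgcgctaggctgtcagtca
Nsdhl had 5 matches in this window, Fdps 2, and Insig1 and Lss 1 each. Of the 21 measured members 17 had an entry, and 13 of the 17 held at least 1 match, against 34.3% of all 27457 promoters of the same length. The letters TCACNCCAC, a form of the sterol regulatory element, were found on either strand in 0 of the 17 and in 0.976% of all promoters, which says only that these letters are not in these windows. A match is a description of the sequence and not of binding, and a link of Nfyb to these genes was not tested.

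Fatty acid synthesis and desaturation, the other branch of lipid supply that SREBP factors control, had 16 of 20 genes measured and a median of −0.10 with all arrays and −0.12 without array 1. At an unadjusted p under 0.05 there were 1 higher and 3 lower members, against 519 and 146 of all 9210 genes tested. There were 0 members without array 1 and 0 without control 2, where all genes gave 468 higher and 210 lower, and 342 and 121. The higher member was Gpam, which starts glycerolipid synthesis at the mitochondrial outer membrane, and it read 1.11, 0.43 and 0.37 with halothane against 0.37, 0.09 and −0.19. Array 1 was its highest array, arrays 2 and 3 lay at or just above control 1, and the difference was 0.55 ± 0.22 with all arrays and 0.31 ± 0.18 without array 1. Acly, which makes cytosolic acetyl-CoA, read −2.07, −0.78 and −0.76 with halothane and −0.92, 0.47 and −0.09 in the controls. Control 1 of Acly lay among the halothane values, so the groups overlapped, and the difference was −1.02 ± 0.38 with all arrays and −0.59 ± 0.32 without array 1. Fasn, fatty acid synthase, read −0.94, −1.16 and −0.74 against −1.02, 0.55 and −0.20 (difference −0.72 ± 0.32, and −0.73 ± 0.36 without array 1), and Acsl4, an acyl-CoA ligase for polyunsaturated fatty acids, −1.16, −0.61 and −0.57 against −0.57, 0.50 and −0.04 (difference −0.74 ± 0.26, and −0.55 ± 0.26 without array 1). For arrays 2 and 3 the distance of Fasn was 0.07 from control 1 and −1.50 from control 2, and that of Acsl4 −0.02 and −1.09.

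The ATF4 list, which holds genes of amino acid synthesis, transport and tRNA charging that answer to amino acid shortage, lay above control by a median of 0.29 over 25 measured of 30 genes, and by 0.27 without array 1. Arrays 2 and 3 lay 0.06 above control 1, 0.66 above control 2 and −0.03 from control 3, and without control 2 the median was −0.04. Stc2, a secreted glycoprotein of stressed cells, read 0.33, 0.67 and 0.87 with halothane and 0.23, −0.73 and 0.12 in the controls (difference 0.75 ± 0.24, and 0.90 ± 0.25 without array 1). The groups of Stc2 did not overlap, with control 1 close below the lowest halothane value. Shmt2, the mitochondrial serine hydroxymethyltransferase, read 0.10, 0.12 and 0.25 against −0.05, −0.48 and −0.30 (difference 0.43 ± 0.16, and 0.46 ± 0.16 without array 1). Ddit4, an inhibitor of mTORC1 signalling, went the other way with −0.81, −0.92 and −0.97 against −0.52, −0.13 and −0.56 (difference −0.50 ± 0.18, and −0.54 ± 0.18 without array 1). In the ATF4 list as a whole 5 members had an unadjusted p under 0.05 above control and 1 below with all arrays, 2 and 1 without array 1, and 1 and 2 without control 2. Over all 9210 genes tested these counts were 519 and 146, 468 and 210, and 342 and 121.

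NRF2 targets, enzymes of glutathione, thioredoxin, quinone and iron handling, had a median of 0.24 over 26 measured of 28 genes and of 0.30 without array 1. With all arrays 5 members had an unadjusted p under 0.05, all above control, against 519 higher of all 9210 genes tested. There were 4 without array 1, all above, and 1 above and 1 below without control 2. Over all genes these fits gave 468 higher and 210 lower, and 342 higher and 121 lower. Nqo1, the quinone reductase often read as a marker of NRF2, read 1.32, 0.71 and 0.50 with halothane and 0.28, −0.59 and 0.11 in the controls (difference 0.91 ± 0.28, and 0.68 ± 0.27 without array 1). The mean of Nqo1 was −0.30 ± 0.08 (SD, n = 3) at halothane 3 MAC and 1.67 ± 0.42 with isoflurane. Ftl1, the ferritin light chain, read 0.24, 0.09 and 0.16 against −0.13, −0.30 and −0.19 (difference 0.37 ± 0.14, and 0.33 ± 0.13 without array 1). The groups did not overlap in either gene. Against the single controls the median of the list was 0.07, 0.52 and 0.05, and without control 2 it was 0.08.

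Metallothioneins and zinc transporters had a median of 0.02 over 9 measured of 13 genes with all arrays, of 0.21 without array 1 and of −0.15 without control 2. For arrays 2 and 3 it was 0.05, 0.43 and −0.01 against the single controls. Mt1, a metal-binding metallothionein, read 1.82, 0.68 and 0.80 with halothane against 0.41, −1.02 and 0.45 (difference 1.16 ± 0.38, 2.23-fold, and 0.80 ± 0.36 without array 1). Control 2 lay far below the other controls of Mt1, and the distances of arrays 2 and 3 were 0.33, 1.76 and 0.29. Mtf1, the zinc-sensing factor that switches metallothioneins on, read 0.47, 0.52 and 0.44 against 0.03, 0.07 and 0.15, with tight values in both groups (difference 0.39 ± 0.12, and 0.39 ± 0.10 without array 1, adjusted p = 0.348). The means of Mtf1 were 0.47 ± 0.08 (SD, n = 3) at halothane 3 MAC and 0.48 ± 0.05 with isoflurane.

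Interferon response genes had a median of 0.46 over 14 measured of 24 genes with all arrays, of 0.24 without array 1, and of 0.06, 0.48 and −0.01 for arrays 2 and 3 against the single controls. Besides Ido1, Oas1a, a sensor of double-stranded RNA, read 1.04, 0.51 and 0.47 against 0.28, −0.56 and −0.08 (difference 0.80 ± 0.26, and 0.61 ± 0.26 without array 1), and Psmb8, a subunit of the immunoproteasome, 0.63, 0.17 and 0.20 against −0.14, −0.99 and 0.07 (difference 0.69 ± 0.26, and 0.54 ± 0.27 without array 1). Array 1 was the highest array of both genes. Heat shock proteins had a median of −0.14 over 18 genes with all arrays and of 0.06 without array 1. Hsph1, a large cytosolic chaperone, read −0.95, −0.46 and −0.30 against −0.05, 0.12 and −0.01 (difference −0.59 ± 0.21, and −0.40 ± 0.19 without array 1), and the small heat shock protein Cryab 0.50, 0.33 and 0.45 against 0.13, −0.47 and −0.03 (difference 0.55 ± 0.20, and 0.51 ± 0.22 without array 1). The 16 measured genes of the unfolded protein response and ER chaperones had a median of −0.09 with all arrays and 0.05 without array 1. Under an unadjusted p of 0.05 there were 0 members with all arrays and 1, higher, without array 1. Over all 9210 genes tested there were 519 higher and 146 lower with all arrays, and 468 and 210 without array 1.

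Among the known targets of volatile anaesthetics no list had a median farther than 0.16 from 0 with all arrays, and none passed in any member. The 8 measured two-pore potassium channels had a median of 0.10, and 0.14 without array 1. The family sets the resting potential, and halothane is known to open some of its members but not all. Kcnk12, a subunit of that family, read 0.98, 0.52 and 0.48 with halothane and −0.01, −0.49 and 0.16 in the controls. The groups did not overlap, and the difference was 0.77 ± 0.21 (1.71-fold; adjusted p = 0.626) and 0.62 ± 0.19 without array 1 (adjusted p = 0.499). Kcnk10, a channel opened by stretch and lipids, read 1.10, −0.05 and 0.28 against 0.08, −0.19 and −1.10, with overlapping groups (difference 0.84 ± 0.35, and 0.52 ± 0.33 without array 1). The 42 other potassium channels measured had a median of 0.16 with all arrays and 0.04 without array 1. Kcns3, a silent subunit that modifies Kv2 channels, read 0.98, 0.36 and 0.31 against −0.01, −0.45 and −0.01 (difference 0.71 ± 0.20, and 0.49 ± 0.14 without array 1, adjusted p = 0.461).

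GABA-A and glycine receptor subunits, the main inhibitory targets, had a median of 0.05 over 15 genes and of −0.03 without array 1. Glrb, the glycine receptor beta subunit, read −1.01, −0.20 and −0.19 against −0.25, 0.11 and 0.48 (difference −0.58 ± 0.24, and −0.31 ± 0.18 without array 1), and Gabra4, a GABA-A alpha subunit, 0.01, 0.11 and −0.07 against 0.51, 0.17 and 0.23 (difference −0.29 ± 0.16, and −0.28 ± 0.16 without array 1). Groups of Glrb overlapped and those of Gabra4 did not. Ionotropic glutamate receptor subunits had a median of 0.04 over 14 genes and of −0.13 without array 1. The NMDA receptor subunit Grin2a read 0.90, −0.59 and −0.06 against 0.62, −0.17 and 0.86, with a wide spread in both groups (difference −0.35 ± 0.35, and −0.76 ± 0.28 without array 1), and the AMPA receptor subunit Gria3 differed by −0.23 ± 0.17 (−0.33 ± 0.16 without array 1).

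Nicotinic acetylcholine receptor subunits had a median of 0.04 over 14 genes and of 0.09 without array 1. Chrna4, the alpha 4 subunit of the main brain form, read 0.57, 0.05 and 0.11 with halothane and −0.18, −0.24 and −0.59 in the controls, without overlap (difference 0.58 ± 0.18, and 0.41 ± 0.14 without array 1). Sodium, calcium and HCN channel subunits had a median of 0.00 over 25 genes and of −0.04 without array 1. The sodium channel Scn8a read −0.19, −0.46 and −0.42 against −0.06, −0.07 and −0.11 (difference −0.28 ± 0.13, and −0.36 ± 0.10 without array 1), with nearly equal controls, and Scn1a differed by −0.61 ± 0.23, and by −0.35 ± 0.18 without array 1. Calcium store genes had a median of −0.15 over 14 genes and of −0.09 without array 1, and the calcium pump of the plasma membrane Atp2b2, listed with them, read −1.17, −0.47 and −0.26 against 0.17, 0.48 and 0.01 (difference −0.85 ± 0.25, and −0.58 ± 0.21 without array 1).

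Vesicle release genes had a median of 0.07 over 44 genes and of −0.01 without array 1. Next to Syt11, the SNARE protein Snap23 read 1.77, 0.46 and 0.69 against 0.17, −0.02 and 0.01 (difference 0.92 ± 0.31, and 0.52 ± 0.21 without array 1). Array 1 was by far the highest array of Snap23, and arrays 2 and 3 also lay above all controls. Adenylyl cyclases and phosphodiesterases had a median of −0.04 over 27 genes, also without array 1, with Adcy8 their member of smallest p, and the cyclic AMP-responsive factor Creb1 read −0.29, −0.79 and −0.82 against −0.35, −0.46 and −0.06 (difference −0.34 ± 0.20, and −0.52 ± 0.18 without array 1). Immediate early genes, which neurons switch on within minutes of firing, had a median of 0.38 over 24 genes with all arrays, of 0.17 without array 1, and of −0.01, 0.45 and 0.03 against the single controls. The orphan nuclear receptor Nr4a3 read 0.38, 0.42 and 0.64 against 0.34, 0.08 and −0.93 (difference 0.65 ± 0.27, and 0.70 ± 0.30 without array 1), with control 3 far below the others.

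Neuropeptide precursors and granins had a median of 0.23 over 25 genes and of 0.11 without array 1. For arrays 2 and 3 it was −0.01, 0.28 and −0.02 against controls 1, 2 and 3. The granin Scg5 read 0.23, 0.37 and 0.39 against 0.40, −0.47 and −0.27 (difference 0.45 ± 0.20, and 0.50 ± 0.21 without array 1), and control 1 lay above all halothane values. Neurotrophic factors and receptors had a median of 0.11 over 28 genes and of 0.04 without array 1. Tubulin, neurofilament and axon growth genes had a median of −0.22 over 24 genes and of −0.18 without array 1. For arrays 2 and 3 it was −0.05, −0.35 and −0.10 against controls 1, 2 and 3, and without control 2 it was −0.14. At an unadjusted p under 0.05 there were 3 members with all arrays, 4 without array 1 and 2 without control 2, all lower. Over all 9210 genes tested the lower counts were 146, 210 and 121. Tubb5, a beta tubulin, read −0.72, −0.50 and −0.49 against −0.23, 0.12 and −0.17 (difference −0.48 ± 0.15, and −0.40 ± 0.13 without array 1), and Tubb2b, a beta tubulin of growing neurons, −0.88, −1.04 and −1.26 against −0.81, −0.79 and −0.40 (difference −0.39 ± 0.17, and −0.48 ± 0.16 without array 1). Tubb2b stood below the pool on every array, controls included, and its groups lay next to each other.

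The remaining lists are given with their members of smallest p. Oxidative phosphorylation subunits had a median of −0.18 over 52 genes and of −0.07 without array 1. The complex I subunits Ndufv3 and Ndufb5 differed in opposite directions, by 0.70 ± 0.23 (0.47 ± 0.19 without array 1) and −0.45 ± 0.17 (−0.30 ± 0.13 without array 1). Cytosolic ribosomal proteins had a median of 0.03 over 47 genes and of 0.17 without array 1, and Rpl10 differed by 0.40 ± 0.16 (0.33 ± 0.15 without array 1). Glycolysis and hypoxia genes had a median of 0.02 over 28 genes and of 0.03 without array 1, and phosphoglycerate kinase, Pgk1, differed by −0.49 ± 0.18 (−0.34 ± 0.15 without array 1). Cell cycle and DNA replication genes, of which Pcna is one, had a median of 0.13 over 29 genes and of 0.03 without array 1, and of 0.16, −0.40 and 0.45 against the single controls, so the sign depended on the control array. Without control 2 the median was 0.36, with 24 of 29 members above 0 and 6 higher at an unadjusted p under 0.05. Over all 9210 genes tested, 5782 lay above 0 and 342 were higher in that fit.

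The p53 and apoptosis list had a median of 0.17 over 26 genes and of 0.05 without array 1. Cdkn1a, the cell cycle inhibitor p21, differed by 0.47 ± 0.19 (0.32 ± 0.17 without array 1). The circadian clock list had 0.22 over 14 genes and 0.07 without array 1, with the nuclear receptor Rorb at 0.56 ± 0.21 (0.40 ± 0.19 without array 1), and the inflammatory list 0.18 over 29 genes and −0.01 without array 1. Xenobiotic metabolism genes had a median of 0.17 over 27 genes and of 0.09 without array 1. Gstt1, a glutathione transferase that handles halogenated alkanes, read 0.46, 0.24 and 0.51 with halothane against −0.44, −0.59 and 0.16 (difference 0.69 ± 0.20, and 0.66 ± 0.22 without array 1). The cytochrome P450 Cyp4b1 read 1.21, 0.73 and 0.89 against −0.21, −0.18 and 0.57 (difference 0.88 ± 0.31, and 0.75 ± 0.34 without array 1), with a mean of −0.07 ± 0.17 (SD, n = 3) at halothane 3 MAC and 2.39 ± 0.68 with isoflurane. Cyp1b1, another cytochrome P450, differed by −0.68 ± 0.25 (−0.83 ± 0.26 without array 1), and its control 3 stood at 0.98 against −0.05 and 0.04 in the other controls.

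Markers of cell types also differed among the control arrays. The 15 measured astrocyte markers had medians of 0.10, 0.14 and 0.19 on the halothane arrays, and of 0.28, −0.74 and 0.30 in controls 1, 2 and 3. Their median difference was 0.26 with all arrays, 0.24 without array 1 and −0.08 without control 2. With all arrays 11 lay above 0 and 4 below, without array 1 there were 13 and 2, and without control 2 there were 4 and 11. Sparc, a matrix protein of astrocytes, read 1.24, 0.66 and 0.69 against 0.47, −0.81 and −0.23 (difference 1.05 ± 0.30, and 0.87 ± 0.31 without array 1), and Aldh1l1, a folate enzyme of astrocytes, 0.10, −0.31 and −0.31 against −0.04, 0.46 and 0.02 (difference −0.32 ± 0.17, and −0.46 ± 0.14 without array 1), so these markers went apart. The part of astrocyte content in the gene groups that set control 2 apart, such as cholesterol synthesis and ATF4 targets, was not tested.

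The 9 markers of neurons of any type had a median of −0.24 with all arrays and −0.12 without array 1, and the neurofilament Nefm differed by −0.66 ± 0.29 and −0.38 ± 0.26. The 7 excitatory markers had −0.02 and −0.13, and −0.34 without control 2. Of these markers 3 lay above 0 and 4 below with all arrays, and 2 above and 5 below without array 1. Among them the glutamate transporter Slc17a6 read −0.50, −0.78 and −0.65 against −0.51, 0.41 and −0.09 (difference −0.58 ± 0.21, and −0.65 ± 0.22 without array 1). The 11 inhibitory markers had 0.04 and 0.05, with 6 above 0 and 5 below with all arrays, and 7 and 4 without array 1. Among them the homeobox gene Dlx2 differed by 0.80 ± 0.31 and 0.37 ± 0.18. Progenitor markers had a median of 0.06 over 10 genes, of −0.05 without array 1 and of 0.29 without control 2. With all arrays 7 lay above 0 and 3 below, and without array 1 there were 4 above and 6 below. Vimentin, Vim, read 0.29, 0.80 and 0.86 against 0.55, −0.84 and 0.16 (difference 0.69 ± 0.30, and 0.87 ± 0.32 without array 1), with overlap. Markers of oligodendrocytes (0.06 over 10 genes), microglia (0.20 over 9), endothelium (0.15 over 11), fibroblasts (0.08 over 12), choroid plexus (0.29 over 8) and red blood cells (0.11 over 4) held 0 called members, and without array 1 these 6 medians lay between −0.20 and 0.01.

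The dose comparison asks whether halothane at 1 MAC and at 3 MAC differed. With all arrays 0 of 16546 features passed between the doses (smallest adjusted p 0.0607), and 3067 had an unadjusted p under 0.05. Without halothane 1 MAC array 1, 69 features (0.417%) passed, 34 higher and 35 lower at 1 MAC, of which 34 were named genes, 23 higher and 11 lower. Of the 30 genes named above 4 were among them, against 34 of all 9210 genes tested. The named genes were chosen for their values on the same halothane arrays 2 and 3, so this count is no finding about them. Abcc4 was higher at 1 MAC by 1.06 ± 0.15 (adjusted p = 0.0444), with a mean of −0.55 ± 0.18 (SD, n = 3) at 3 MAC. Hars2 was higher by 1.39 ± 0.24 (adjusted p = 0.0444). Bhmt was lower at 1 MAC, with a difference of −0.76 ± 0.11 (adjusted p = 0.0444), and so was Lingo2, at −0.59 ± 0.10 (adjusted p = 0.0475).

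Of the 781 list symbols measured, 5 passed between the doses without array 1, against 34 of all 9210 genes tested. All 5 had an adjusted p of 0.0444 in the limma fit. Ddit4 was lower at 1 MAC, with a difference of −1.09 ± 0.18, and so was Aldh1l1, at −0.85 ± 0.14. Creld2, a chaperone of the endoplasmic reticulum, was higher by 1.06 ± 0.17, the clock gene Per2 by 1.35 ± 0.22 and the neurotrophic receptor kinase Ret by 1.44 ± 0.23. Creld2, Per2 and Ret were chosen after their values were seen. Sterol genes of the smallest p did not pass: Nsdhl differed by −0.72 ± 0.13 (adjusted p = 0.0525) and Insig1 by −1.20 ± 0.25 (adjusted p = 0.0545). The number of calls between the doses moved widely with the arrays in the fit: 698 passed without control 2, 1637 without control 2 and halothane array 1 together, and 0 without array 1 once the replicate number was a block. Controls enter this comparison only through the estimate of the spread.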

How the data were processed

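RNA of the 6 compared samples, and of the 6 other samples in the fit, was measured on two-colour Agilent arrays. The authors deposited 1 log10 ratio per spot, with base and direction likely as given above. Per the submitters' processing notes the software was Partek. How background and dyes were corrected is not stated in the sources, and spot intensities were not analysed here.

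The values were multiplied by 3.32, the log2 of 10. Exact zeros (15439, or 5.96%) were taken as missing, and 471 unnamed spots at the ceiling on at least 10 arrays were left out. The platform annotation gave 1 symbol to 12750 of 21575 spots, several to 5 and none to 8820, and 12720 named probes matched the RefSeq gene table. Probes of a gene measured on all arrays were averaged. Features with at least 2 values in every group were tested, 9210 genes and 7336 unnamed probes.

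The fit used limma 3.58.1 (R 4.3.3) on 12 arrays with 4 group means and eBayes, which left 8 residual degrees of freedom plus 3.46 from the prior. Tests were two-sided, with Benjamini-Hochberg adjustment over 16546 features and a threshold of 0.05. The code was tested on simulated data. Tables and plots used Python 3.11.15, pandas 2.3.3, numpy 2.4.6 and matplotlib 3.10.9. Precision is limited by the number of arrays.

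The samples, lists, tests and the rule for named genes were chosen with earlier results of these data known. Named genes are the 10 of smallest p in each direction with non-overlapping groups, from the fit with and the fit without halothane 1 MAC array 1. From a described list the text names up to 4 members that are among the 4 of smallest p in both fits (in either fit for cholesterol). Not every such member is described above. For example, the metallothionein Mt2A differed by 1.40 ± 0.65 (1.12 ± 0.74 without array 1). Bag3 of the heat shock list differed by 0.89 ± 0.53 (1.05 ± 0.60 without array 1). Alternatives covered the arrays in the fit, a replicate block, normalization, zeros, ceiling spots, missing values, probes, variances, weights and the reference. Comparisons with single control arrays were chosen after seeing the data.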

Additional observations from a re-analysis of the deposited data

How the results depend on the processing

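Between halothane 1 MAC and control, the count of features past the threshold was 0 of 16546 and lay between 0 and 4 when any 1 of the 6 arrays was left out, with 4 without control 1. It was 2 without halothane array 1 and control 2 together, 1 after quantile normalization, 1 after scaling to one median absolute deviation, 4 after quantile normalization without array 1, 1 with exact zeros kept, 2 with ordinary variances and 5 with array weights. Against the pooled channel, which leaves the control mean and its error out of the difference, it was 755 (435 higher and 320 lower). The controls still entered the estimate of the spread in that setting. Against single controls it was 0 for control 1, 141 for control 2 and 5 for control 3, and without halothane array 1 it was 0, 795 and 123. Median centring, ceiling spots kept, values on all 12 arrays, 1 probe per gene, and the arrays of the comparison alone gave 0 each.

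Between the doses the count was 0, and lay between 0 and 698 when an array of the comparison with control was left out (69 without halothane 1 MAC array 1, 15 without control 1, 698 without control 2). It was 1637 without array 1 and control 2, 150 after quantile normalization, 7 after scaling, 495 after quantile normalization without array 1, 4 with ordinary variances and 5042 with array weights, a fit that stopped before full convergence and in which halothane array 1 had a weight of 0.0477 and array 2 of 4.66. The cause of these shifts was not tested.

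Deviations of same-numbered arrays correlated between −0.0758 and 0.0968 over 18 pairs. For arrays of different number the range was wider, from −0.1279 to 0.1599 over 36 pairs. Replicate numbers thus gave no sign of pairing. With few arrays per group, some of them far from the rest, this check cannot decide whether same-numbered plates shared a mother. With the replicate block the count against control was 0 (smallest adjusted p 0.612), and 0 without array 1 (0.423). Between the doses it was 0 with the block, and 0 without array 1.

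Of 82 genes named under 28 alternatives, 69 kept their sign in all of them. With a halothane 1 MAC array left out, Tmlhe lay between −0.0898 (without array 2) and 0.629 (without array 1), and Rasd1 between −0.559 (without array 1) and 0.1001 (without array 3). Cavin2 turned to 0.156 with 1 probe per gene. Against the pooled channel Anks1b was 0.195, Gabra4 0.0195 and Grin2a 0.0825, and Grin2a was 0.254 against control 2. Against control 1 Tm7sf2 was 0.101, Fasn 0.0764 and Scg5 −0.0696. Against control 1 and without array 1, Acly was 0.155, Fasn 0.0731, Glrb 0.0498, Scg5 −0.0198, Dlx2 −0.0615 and Nefm 0.201.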

Other observations

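Halothane 1 MAC arrays 2 and 3 lay on average more than 2-fold above control 1 in 11 genes and more than 2-fold below it in 6, of 8933 genes with all values. None of these lay more than 2-fold from all 3 controls, and 0 genes did so in either direction overall. They were chosen after their values were seen. Sema3d, a secreted semaphorin that steers axons, read 0.54 and 0.64 on arrays 2 and 3 against −0.82, −0.09 and −0.47 in the controls. Sptssb, a small subunit of serine palmitoyltransferase, read 1.00 and 1.24 against −0.18, 0.08 and 0.65. The kinase Rps6ka3 read 0.87 and 0.78 against −0.31, 0.13 and 0.34. On array 1 Sema3d read 0.20, Sptssb 0.66 and Rps6ka3 0.10, the last below controls 2 and 3. Unc13a, which primes synaptic vesicles for release, read −0.75 and −0.58 against 0.58, 0.22 and −0.38, with 0.93 on array 1. For Epcam, Ccdc71 and Mier1 control 1 itself stood at −2.51, −2.64 and −1.86, while controls 2 and 3 lay between −0.87 and 0.31.

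Among the 34 named genes that passed between the doses without halothane 1 MAC array 1, the enzymes Hexa, Ctsh and Dpp7 and the membrane protein Dram1 were higher at 1 MAC by 1.00 ± 0.14, 1.18 ± 0.19, 1.15 ± 0.18 and 1.46 ± 0.22. The phagocytic receptor kinase Mertk was higher by 1.84 ± 0.20 and the glutamine transporter Slc1a5 by 2.29 ± 0.40. The synaptic vesicle chaperone Dnajc5 was lower at 1 MAC, with a difference of −1.13 ± 0.20. Adjusted p of these genes lay between 0.0444 and 0.0489 in the limma fit, and they were chosen after their values were seen. The fit of all arrays made 0 calls between the doses, and the fit without array 1 made 0 once the replicate number was a block.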
